A study of Mus musculus with 7 samples.

Results

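The 39 genes described here make and run the machinery that copies DNA: 10 that license replication origins, 8 that activate the helicase, 8 of primase and the replicative polymerases, 8 of the sliding clamp, its loader, single-strand binding and the maturation of Okazaki fragments, 4 of nucleotide supply, and UHRF1. They were taken by name from the 24353 genes of the deposited table, and all 39 were found there. The list was chosen with earlier results of these data known. Gene names are printed in capitals as in that table, although the animals are mice.

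A cell replicates its DNA once per cycle. In G1 the origin recognition complex, with CDC6 and CDT1, loads the ring-shaped MCM helicase onto DNA. At the start of S phase the kinase CDC7 with its partner DBF4, together with CDC45 and the GINS complex, turns that ring into an active helicase, and primase and the DNA polymerases follow it. Most of these genes are known targets of E2F transcription factors, which are held back by the retinoblastoma family of pocket proteins. In the endometrium, estradiol is the classic stimulus that sends luminal and glandular epithelial cells into S phase.

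RNA of mouse endometrial epithelial cells was measured by RNA sequencing in 7 libraries from C57BL/6 females whose ovaries had been removed at 6 to 7 weeks of age, so that every group, controls included, lacked ovarian hormones. Of these mice, 18 were assigned at random, 6 in each arm. They received vehicle, tamoxifen under the skin (0.5 mg per day), or that tamoxifen dose with alpelisib (30 mg per kg per day), each for 28 days. A further 2 mice carried an estradiol pellet of 0.01 mg, made to release over 60 days, for 28 days. There were 2 libraries each for estradiol, tamoxifen and tamoxifen plus alpelisib, but only 1 for vehicle. Tamoxifen binds the estrogen receptor, which it partly activates in uterine tissue, and alpelisib blocks PI3K alpha. Vehicle values have no replicate. The sources used here do not say whether that library holds 1 mouse or a pool, nor how the epithelium was separated.

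Values were taken as FPKM, fragments scaled to transcript length and to the size of the library, so that levels can be compared between genes. Summed over all genes, FPKM ran from 264322 to 403562 per library. Depth was gauged from low values of genes with a single transcript that fell in a preset window, taken to stand for 1 fragment. The median in that window put 1 fragment on 1 kb at 0.0553 to 0.0623 FPKM, or 16 to 18.1 M fragments. The window bounds this figure in advance, so the figure is no independent measure of depth. In the estradiol 2 library the window held 23 genes, against 132 to 196 in the others. The epithelial marker EPCAM stood between 202 and 289 FPKM in all 7 libraries, and the lymphocyte marker CD3E was at 0 in 6. Other epithelial markers varied more, KRT8 from 769 to 2295 FPKM and CLDN4 from 95.2 to 1442, and the sum of all 12 ran from 2953 to 7311. With tamoxifen against vehicle 2 of the 12 were called higher and 4 lower. Markers of other cell types were detected at unequal levels, and whether through cell content or regulation was not tested. The summed FPKM of 12 stromal markers, of which DCN gave 144 of 269 in vehicle, was highest in vehicle (269), lower with estradiol (191 and 181) and alpelisib (121 and 129), and lowest with tamoxifen alone (56.2 and 56.0). COL1A1, also on that list, did not follow the sum, with 15.0 and 18.7 FPKM with estradiol and 7.52 in vehicle. In bulk RNA, fewer cells in S phase and less RNA per cell cannot be told apart.

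All 39 genes passed the filter of 1 FPKM in at least 1 library. A total of 28 reached 1 FPKM in every library, and CDC6, CDC7, GINS3 and ORC1 did so only with estradiol. The most abundant was PCNA, at 52.6 to 133 FPKM, and the lowest single value was 0.119 FPKM, for GINS3 in the tamoxifen plus alpelisib 1 library. Added over the 39 genes, FPKM was 846 and 746 with estradiol, 383 in vehicle, 236 and 269 under tamoxifen, and 196 and 209 with both drugs. These sums were 0.262% and 0.282% of all FPKM with estradiol, 0.0998% in vehicle, 0.0738% and 0.0668% under tamoxifen, and 0.0550% and 0.0553% with both drugs. Each of the 39 genes had its highest value in an estradiol library. In 38 of them both estradiol libraries lay above the other 5, and the exception was RFC2, at 22.2 FPKM in estradiol 2 and 22.4 in vehicle. The shares of all genes with these patterns were not counted, so both counts describe the 39 genes only.

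**Figure D1:**
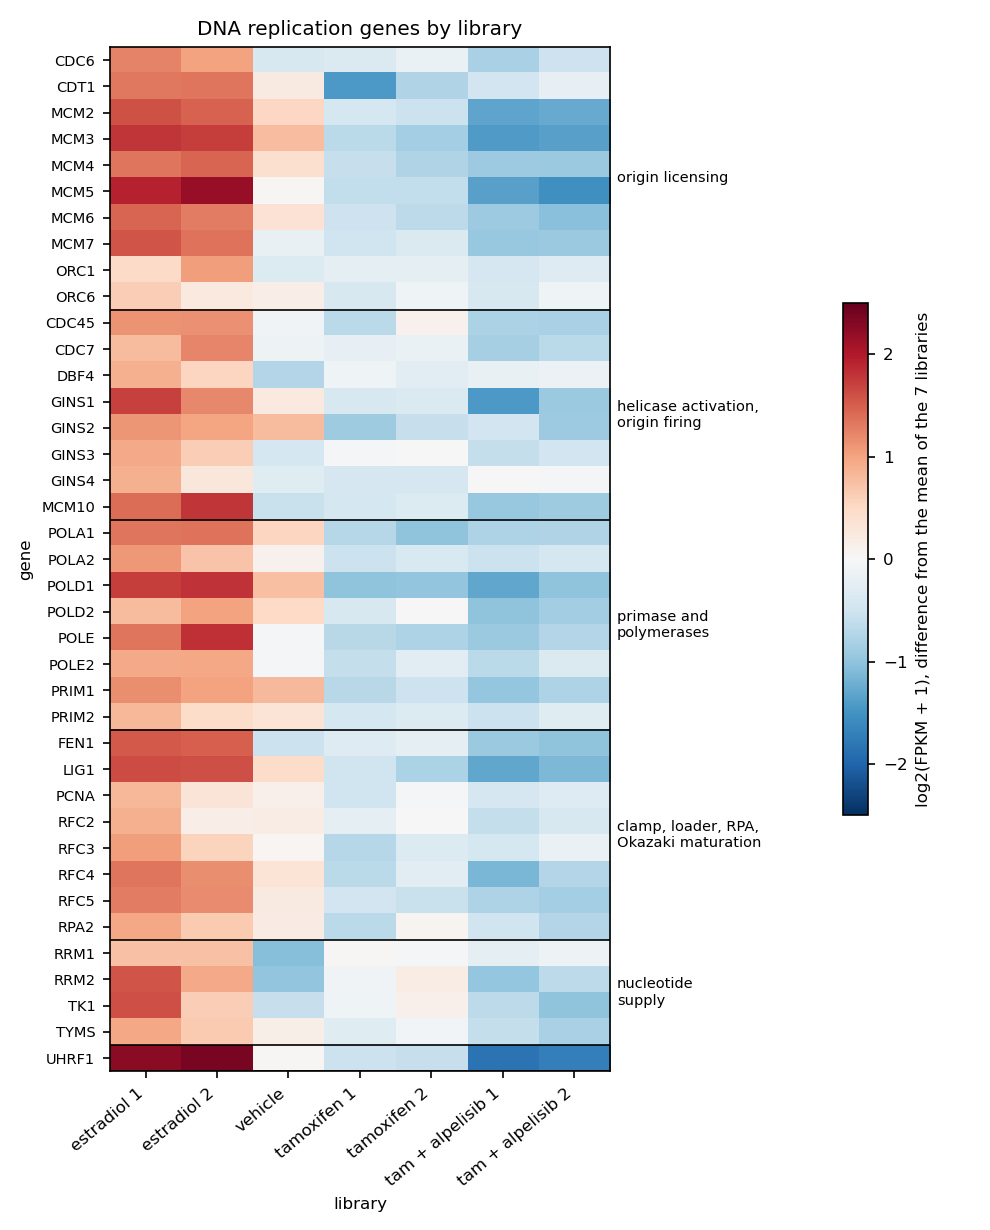
Level of each of the 39 genes (rows, grouped by role) in each of the 7 libraries (columns), as log2(FPKM + 1) minus that gene's mean over the libraries; red is above and blue below the mean. Both estradiol columns are red for the genes shown, the vehicle column lies between for 27 genes, and RRM1, RRM2 and DBF4 are lowest in vehicle.

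The group means fell into few orders. In 24 genes, among them MCM2 to MCM7 and 7 of the 8 primase and polymerase genes, the order was estradiol, vehicle, tamoxifen, then tamoxifen plus alpelisib. In CDC6, FEN1, GINS3, MCM10, ORC1 and TK1 tamoxifen stood above vehicle and the combination was lowest. CDT1, GINS2, ORC6, POLA1 and RFC3 were lowest with tamoxifen alone, as was GINS4, where the combination stood above vehicle. RRM1 and RRM2 had the vehicle library lowest, as did DBF4. An order of means takes no account of the spread, and most neighbours in it did not differ by the test given next.

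Differences were tested with limma on log2(FPKM + 1), over 12314 genes, and are given as log2 fold changes ± SE with p adjusted over all genes. The single vehicle library serves 3 of the 6 comparisons, which therefore are not independent of each other. With estradiol, 29 of the 39 genes were higher than in vehicle and 0 lower, 74.4% of them against 22.7% of all genes tested. The share of all genes called lower in that comparison was 12.8%. CDC6, CDC7, GINS3 and ORC1 are among the 29 and passed the filter only through their estradiol values, so their calls add no independent support. The median log2 fold change was 1.02 over the 39 and 0.12 over all genes. The 10 genes not called were GINS2, ORC6, PCNA, POLD2, PRIM1, PRIM2, RFC2, RFC3, RPA2 and TYMS, whose estimates ran from 0.25 to 0.74. When only the estradiol and vehicle libraries were fitted, 12 genes were called. Of 12 epithelial markers 4 fell and 0 rose (summed FPKM 3503 and 2953 with estradiol, 7299 in vehicle). Smooth muscle markers fell in 6 of 6 cases (summed FPKM 9.20 and 6.20 with estradiol, 73.5 in vehicle) and squamous markers rose in 5 of 6 (178 and 177, against 38.5). Of 10 macrophage and neutrophil markers 5 rose (summed FPKM 99.7 and 52.7 with estradiol, 31.2 in vehicle), 6 of 11 stromal markers fell and 2 rose, and the ribosomal RNA precursor stood at 764 and 2276 FPKM with estradiol and 240 in vehicle. Their part in the result was not tested.

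With tamoxifen against vehicle, 16 genes fell and 2 rose. This is 41.0% lower against 24.1% of all genes, and 5.13% higher against 14.9%. The median was −0.57 for the 39 genes and −0.12 for all. The genes that fell were CDT1, MCM2, MCM3, MCM4, MCM5, MCM6, GINS2, POLA1, PRIM1, PRIM2, POLD1, POLD2, RFC4, RFC5, LIG1 and UHRF1, and those that rose were RRM1 and RRM2. Quantile normalization gave 4 higher and 11 lower of the 39, beside 2271 higher and 2572 lower of the 12314 genes tested (1838 and 2969 without it). All 11 stromal markers tested also fell in this comparison, and 4 of 4 erythroid markers rose (summed FPKM 30.4 in vehicle and 1238 and 938 with tamoxifen). Endothelial markers fell in 6 of 7 cases, smooth muscle markers fell in 5 of 6, and squamous markers rose in 5 of 6 (summed FPKM 38.5 in vehicle, 461 and 414 with tamoxifen). The part of these markers in the result was not tested.

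With alpelisib added to tamoxifen, 6 of the 39 genes fell, FEN1, MCM2, MCM3, MCM5, POLD2 and UHRF1, and 0 rose. This is 15.4% against 4.81% of all genes called lower, with 6.93% called higher. In 25 of 39 genes both libraries of the combination lay below both tamoxifen libraries, against 34.3% of all genes. The median was −0.36 for the 39 genes and −0.03 for all. By limma without multiple-test adjustment, 17 of the 39 had a p under 0.05, 16 with lower values and CDT1 with a higher one, against 14.3% of all genes lower and 14.8% higher at that p. Each of these 6 calls was lost when either library of the combination was left out, and the number called also changed without a tamoxifen or an estradiol library. The calls over all genes likewise became far fewer without a library of the combination, so this loss is not particular to the 39. Erythroid markers also stood lower with the combination (summed FPKM 237 and 262, 2 of 4 called), and squamous markers higher (461 and 414 with tamoxifen, 755 and 766 with the combination, 5 of 6 called). Smooth muscle markers fell in 4 of 6 cases, and of 11 stromal markers 3 rose and 1 fell. Their part in the result was not tested.

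Against estradiol, both tamoxifen groups were low for nearly every gene. With tamoxifen alone 38 genes were lower and 0 higher, against 36.2% and 12.3% of all genes, and RFC2 was not called (adjusted p = 0.0709). With the combination all 39 were lower, against 37.5% of all genes called lower and 15.7% higher. Both counts include CDC6, CDC7, GINS3 and ORC1, which passed the filter only through their estradiol values. The medians were −1.42 and −1.94, and the all-gene median was −0.26 in both. Erythroid markers rose in 4 of 4 cases with tamoxifen against estradiol and smooth muscle markers in 6 of 6, while 6 of 7 endothelial markers fell. With the combination against estradiol 6 of 6 squamous markers rose and 6 of 7 endothelial markers fell. Of 12 epithelial markers 4 rose and 2 fell with tamoxifen against estradiol, and 7 rose and 1 fell with the combination against estradiol. The part of these markers was not tested. The combination against vehicle gave 19 genes lower and RRM1 higher, against 21.8% and 13.1% of all genes. In that comparison 9 of 11 stromal and 6 of 6 smooth muscle markers fell and 6 of 6 squamous markers rose, and their part was not tested either. Size factors by the median-of-ratios method moved the all-gene median by over 0.1 in the 5 comparisons with vehicle or estradiol. Against vehicle it went from −0.12 to 0.02 (tamoxifen), 0.12 to 0.00 (estradiol) and −0.15 to 0.00 (combination), and against estradiol from −0.26 to 0.01 in both cases. Under that scaling all genes were called higher and lower in 2497 and 2525 cases for tamoxifen against vehicle (1838 and 2969 without it), in 2109 and 2250 for estradiol against vehicle (2793 and 1573), in 2226 and 2122 for the combination against vehicle (1619 and 2680), in 2950 and 2684 for tamoxifen against estradiol (1519 and 4458), and in 3360 and 3027 for the combination against estradiol (1935 and 4613).

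**Figure D2:**
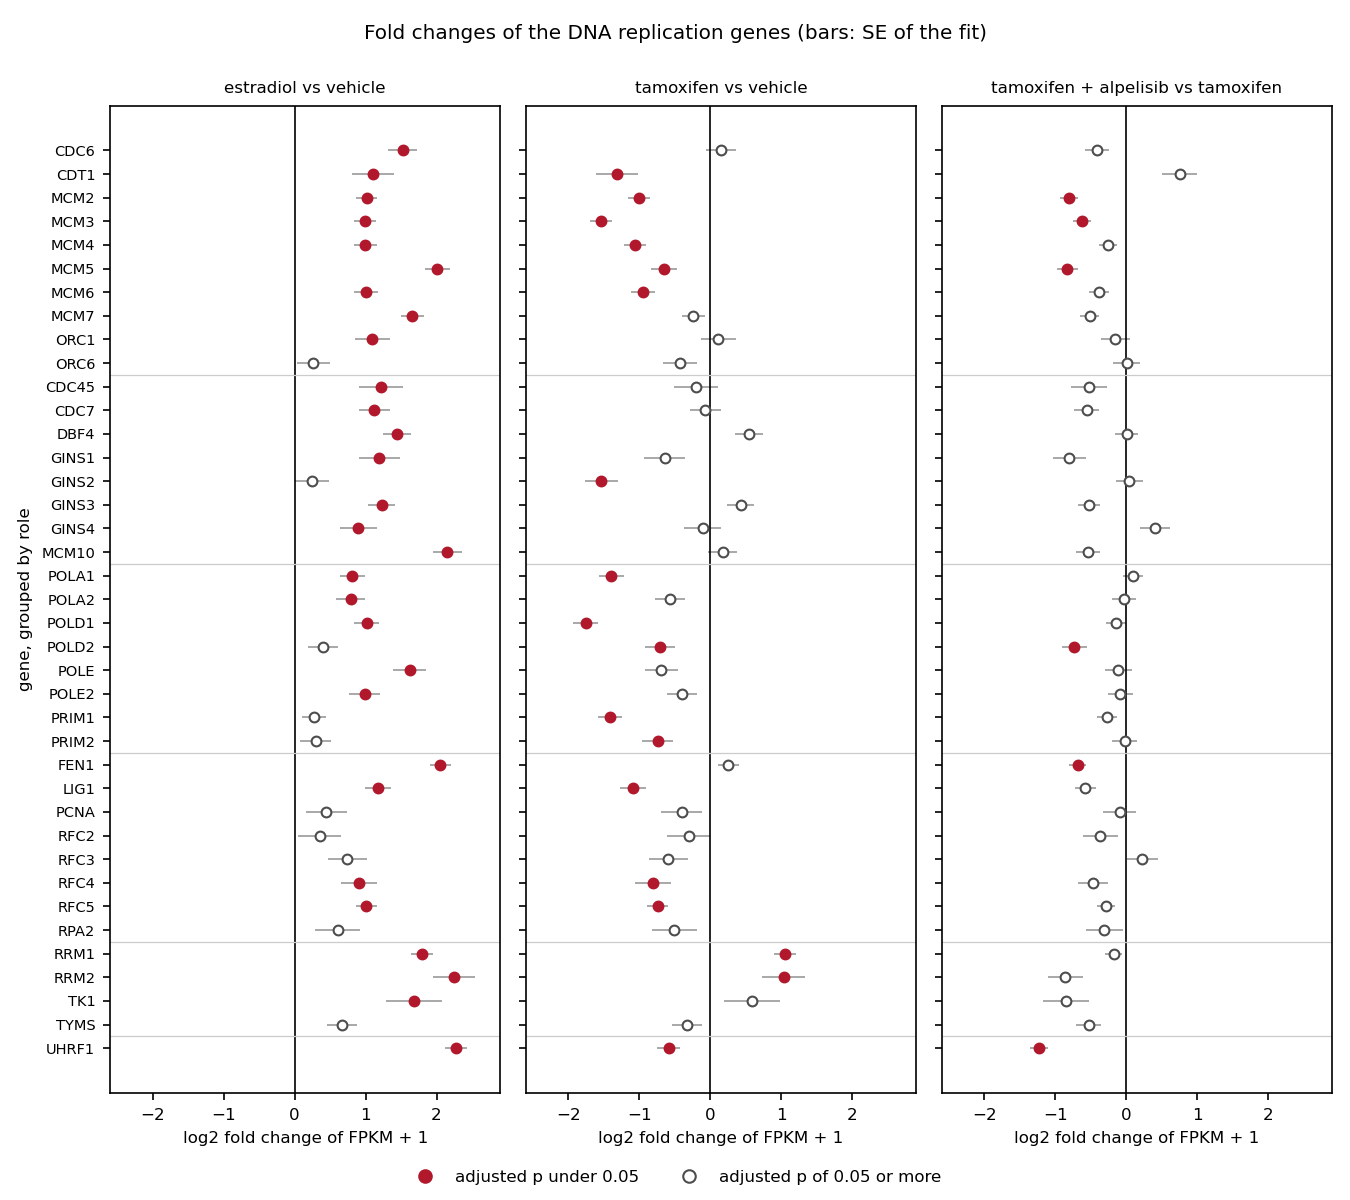
Log2 fold change of FPKM + 1 (x axis, bars show the SE of the fit) of each of the 39 genes (y axis, grouped by role) in 3 comparisons; filled points have an adjusted p under 0.05. With estradiol 29 points are filled, all above 0, with tamoxifen 16 lie below and 2 above vehicle, and 6 lie below 0 when alpelisib is added.

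Promoters are shown because E2F factors are the textbook regulators of these genes. Windows of 250 bases before to 50 after the annotated start were taken from RefSeq (GRCm38.p6) by symbol, which matched 32 of the 39 genes. The words TTTCCCGC, TTTGGCGC, TTTCGCGC and TTTGCCGC were searched on both strands and may overlap. At least 1 was in a window of 14 of the 32 genes (43.8%), against 2.6% of 27025 genes with a RefSeq window and 4.73% of the 9412 genes that were also tested here. The 14 were CDC6, CDT1, GINS3, LIG1, MCM3, MCM5, MCM6, MCM7, ORC1, POLA1, POLD1, POLE2, RFC3 and UHRF1. The word CCAAT was in 59.4% of the 32 genes and 42.8% of tested genes, and the words TTTGAA or TTCGAA, of the cell cycle homology element of mitotic genes, in 28.1% and 16.4%. A match describes letters only.

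Of the windows printed here with the E2F-like words in capitals, MCM3, MCM5 and MCM6 stand for the helicase ring, POLD1 for the polymerases, and UHRF1 is among the genes that fell when alpelisib was added. They lie at chr1:20820263-20820562 (minus strand), chr8:75109259-75109558 (plus), chr1:128359656-128359955 (minus), chr7:44548766-44549065 (minus) and chr17:56304063-56304362 (plus, the second of 2 listed starts). In MCM5 overlapping words form TTTCGCGCCAAA, beginning 153 bases before the start, and MCM6 holds its reverse complement, TTTGGCGCGAAA, beginning 110 bases before the start.
MCM3: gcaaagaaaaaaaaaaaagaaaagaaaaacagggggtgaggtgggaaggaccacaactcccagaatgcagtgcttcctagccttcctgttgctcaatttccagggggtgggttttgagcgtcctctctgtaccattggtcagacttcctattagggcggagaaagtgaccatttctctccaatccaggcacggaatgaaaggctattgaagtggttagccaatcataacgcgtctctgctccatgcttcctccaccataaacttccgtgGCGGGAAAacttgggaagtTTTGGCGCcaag
MCM5: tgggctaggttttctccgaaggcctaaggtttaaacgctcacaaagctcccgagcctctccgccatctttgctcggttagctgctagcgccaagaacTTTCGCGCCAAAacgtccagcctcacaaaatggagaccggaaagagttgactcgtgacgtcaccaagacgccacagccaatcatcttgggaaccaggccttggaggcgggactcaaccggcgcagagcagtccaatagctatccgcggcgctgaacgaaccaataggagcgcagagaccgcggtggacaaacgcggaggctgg
MCM6: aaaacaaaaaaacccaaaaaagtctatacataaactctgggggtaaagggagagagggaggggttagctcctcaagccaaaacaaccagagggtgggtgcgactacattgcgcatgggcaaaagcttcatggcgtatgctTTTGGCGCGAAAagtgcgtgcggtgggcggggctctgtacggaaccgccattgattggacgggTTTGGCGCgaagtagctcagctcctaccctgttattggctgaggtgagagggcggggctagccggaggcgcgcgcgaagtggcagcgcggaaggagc
POLD1: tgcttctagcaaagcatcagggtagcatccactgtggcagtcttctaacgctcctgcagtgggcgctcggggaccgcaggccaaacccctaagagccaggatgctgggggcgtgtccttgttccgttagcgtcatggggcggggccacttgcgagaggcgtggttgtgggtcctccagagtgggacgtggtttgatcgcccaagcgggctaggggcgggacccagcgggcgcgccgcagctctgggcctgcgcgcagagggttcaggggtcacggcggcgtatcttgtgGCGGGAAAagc
UHRF1: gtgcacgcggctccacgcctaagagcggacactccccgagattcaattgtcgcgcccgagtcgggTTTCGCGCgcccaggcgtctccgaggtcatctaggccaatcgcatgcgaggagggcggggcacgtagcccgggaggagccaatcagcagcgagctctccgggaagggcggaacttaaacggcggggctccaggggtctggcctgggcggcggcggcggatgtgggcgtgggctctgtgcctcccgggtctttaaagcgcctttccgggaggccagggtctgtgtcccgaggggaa

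RRM1 and RRM2, the genes that rose with tamoxifen, are also shown and hold none of the words in these windows, at chr7:102441445-102441744 (plus) and chr12:24708004-24708303 (plus). MCM2, which fell in the same comparisons as MCM3, also has none, nor do PRIM1, POLD2, RFC4 and RFC5, which fell with tamoxifen. CDC6, GINS3 and ORC1 hold words, and both their tamoxifen libraries lay above vehicle, though none was called. MCM7, POLE2 and RFC3 hold words and were not called with tamoxifen either. Whether the words go with the direction of change was not tested.
RRM1: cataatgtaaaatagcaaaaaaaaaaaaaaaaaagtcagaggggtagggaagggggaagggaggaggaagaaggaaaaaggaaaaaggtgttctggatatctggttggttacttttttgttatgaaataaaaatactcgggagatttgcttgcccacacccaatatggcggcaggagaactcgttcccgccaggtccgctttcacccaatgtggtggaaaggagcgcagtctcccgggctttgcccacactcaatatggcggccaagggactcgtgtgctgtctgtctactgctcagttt
RRM2: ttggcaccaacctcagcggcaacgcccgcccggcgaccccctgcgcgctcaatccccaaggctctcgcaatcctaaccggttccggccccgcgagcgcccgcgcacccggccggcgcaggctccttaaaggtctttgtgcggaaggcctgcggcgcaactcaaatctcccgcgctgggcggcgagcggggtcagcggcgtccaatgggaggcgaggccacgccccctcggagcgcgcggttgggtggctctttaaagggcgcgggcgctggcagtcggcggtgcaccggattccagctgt

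**Figure D3:**
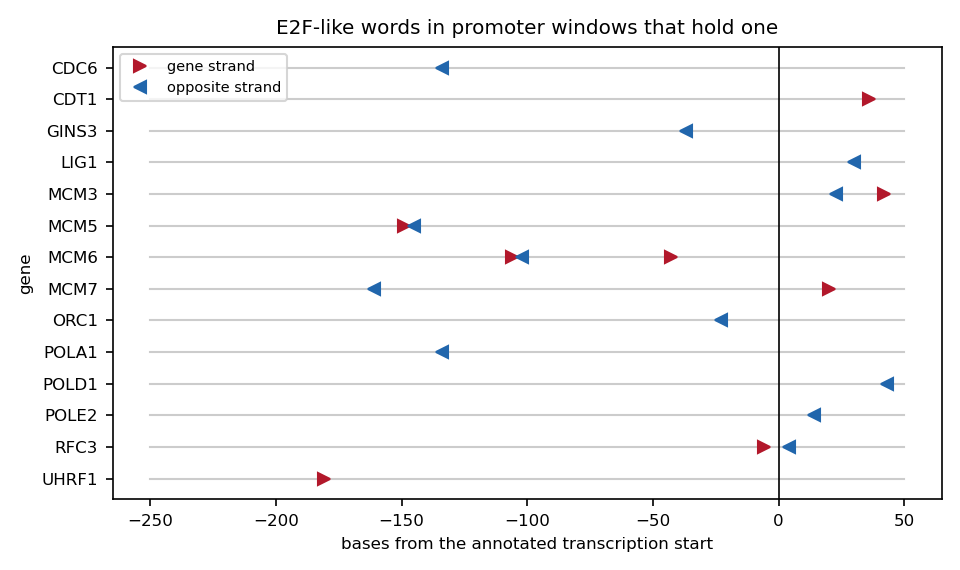
Position of E2F-like words (triangles, pointing right on the gene's strand and left on the opposite strand) relative to the annotated transcription start, in bases, in the promoter windows of the 14 genes that hold one; grey lines span each window. In MCM5 and MCM6 a pair of words overlaps on opposite strands.

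Of the 10 origin licensing genes 9 rose with estradiol, 6 fell with tamoxifen and 3 of them fell further when alpelisib was added. These are 90%, 60% and 30%, against 22.7%, 24.1% and 4.81% of all genes called in the same direction. MCM6, the most abundant subunit of the ring in every library, had an FPKM of 62.1 and 54.7 with estradiol, 28.4 in vehicle, 15.0 and 13.6 under tamoxifen, and 11.3 and 10.1 with the combination of tamoxifen and alpelisib. No 2 of these groups overlapped. It rose with estradiol by 1.01 ± 0.17 (adjusted p = 0.00707) and fell with tamoxifen by 0.95 ± 0.17 (adjusted p = 0.0069), while the change with alpelisib was −0.39 ± 0.14 (adjusted p = 0.13).

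MCM3, a ring subunit, was at 35.4 and 34.0 FPKM with estradiol, 16.9 in vehicle, 5.54 and 4.80 under tamoxifen, and 2.94 and 3.10 with the combination. The 4 groups were again separate, and MCM3 fell with tamoxifen by 1.54 ± 0.16 (adjusted p = 0.000841). With alpelisib added, MCM3 fell by a further 0.62 ± 0.13 (adjusted p = 0.0316), a call lost when any 1 of the 4 libraries compared was left out (adjusted p of up to 0.256). MCM2, whose product carries sites for the CDC7 kinase, was at 44.6 and 41.3 with estradiol, 20.7 in vehicle, 10.2 and 9.41 under tamoxifen, and 5.07 and 5.33 with the combination. MCM2 thus stood lower at each step of that order, by 1.01 ± 0.15 from vehicle to tamoxifen (adjusted p = 0.00368) and by 0.80 ± 0.12 from tamoxifen to the combination (adjusted p = 0.0144). The second of these calls was lost without tamoxifen 1 or either library of the combination.

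MCM5, another ring subunit, had an FPKM of 41.0 and 49.4 with estradiol, 10.4 in vehicle, 6.24 and 6.26 under tamoxifen, and 3.37 and 2.83 with the combination. Its rise with estradiol, 2.01 ± 0.18 (adjusted p = 0.0009), was the largest of the ring on this log2 scale. Its fall with tamoxifen was smaller, −0.65 ± 0.18 (adjusted p = 0.0302), and with median-of-ratios or quantile scaling, or without any 1 tamoxifen or combination library, it did not pass. The fall with alpelisib was −0.83 ± 0.15 (adjusted p = 0.0213). That call was lost when any 1 of the 4 libraries compared was left out, and with the replicate block.

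Summed over MCM2 to MCM7, FPKM was 245 and 237 with estradiol, 98.2 in vehicle, 50.7 and 48.0 under tamoxifen, and 32.5 and 31.3 with the combination. The subunits did not keep one proportion: the highest of the 6 stood 2.40 to 2.96 times above the lowest with estradiol, 2.73 in vehicle, 3.09 and 3.25 under tamoxifen, and 3.83 and 3.57 with the combination. The lowest subunit was MCM4 with estradiol and tamoxifen, MCM5 in vehicle, and MCM3 or MCM5 with the combination. MCM7 was not called between tamoxifen and vehicle (−0.24 ± 0.17, adjusted p = 0.3), unlike the other 5 subunits. That the subunits differ in response was not tested.

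**Figure D4:**
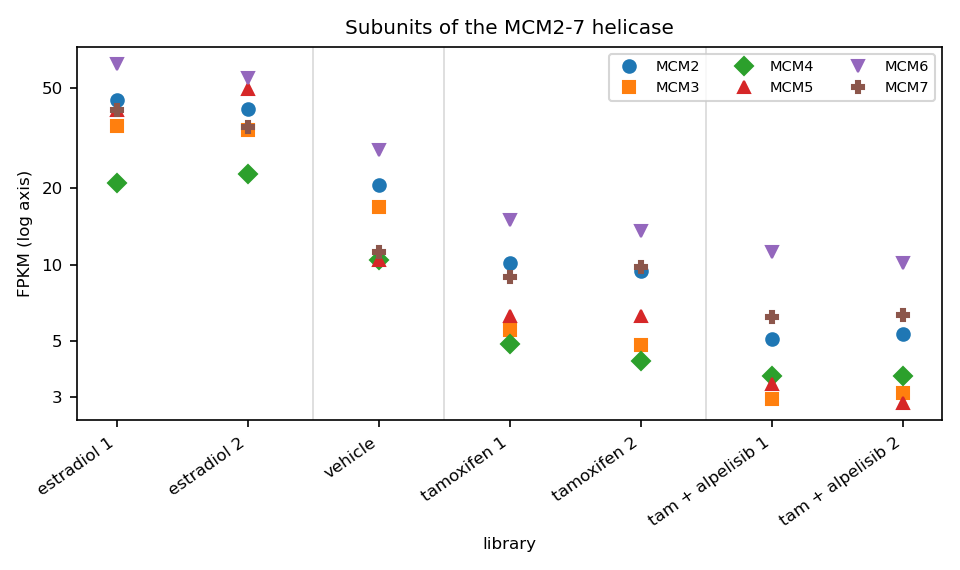
FPKM (log axis) of the 6 subunits of the MCM ring in each of the 7 libraries (x axis, 1 marker per gene and library). MCM6 is the highest marker in every library, and all 6 genes are highest with estradiol and lowest with tamoxifen plus alpelisib.

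CDT1, which brings the MCM ring to the origin, was at 12.5 and 12.8 FPKM with estradiol, 5.36 in vehicle, 1.01 and 2.24 under tamoxifen, and 2.899 and 3.731 with the combination. It was lower with tamoxifen than in vehicle by 1.32 ± 0.29 (adjusted p = 0.015), and both libraries of the combination lay above both of tamoxifen, a difference of 0.75 ± 0.24 that did not pass (adjusted p = 0.0982). Its inhibitor GMNN (geminin) was not called in any of the 6 comparisons. The ratio of CDT1 to GMNN, both in FPKM, was 0.930 and 1.24 with estradiol, 0.518 in vehicle, 0.145 and 0.172 under tamoxifen, and 0.554 and 0.497 with the combination. ORC1 and CDC6, both ATPases of the loading step, were low, at 0.187 to 2.29 and 0.133 to 3.67 FPKM, and rose only with estradiol among the comparisons with vehicle. ORC6, a small subunit of the origin recognition complex, stood at 4.10 to 9.31 FPKM and passed only against estradiol.

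Among the 8 genes of helicase activation and origin firing, 7 rose with estradiol, 1 fell with tamoxifen and 0 were called by limma when alpelisib was added, where 4 had an unadjusted p under 0.05, all with lower values (14.3% of all genes were lower at that p). The rises with estradiol are 87.5% against 22.7% of all genes. The share lower with tamoxifen, 12.5%, was below the 24.1% of all genes. MCM10, which helps start the assembled helicase, was at 6.24 and 8.56 FPKM with estradiol, 0.870 in vehicle, 1.04 and 1.19 under tamoxifen, and 0.430 and 0.496 with the combination. Its rise with estradiol was 2.15 ± 0.20 (adjusted p = 0.00112), and its tamoxifen value, 0.18 ± 0.20 (adjusted p = 0.529), did not differ from vehicle beyond the error.

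The 4 GINS subunits, which form a single complex, differed in their calls, but that they differ in response was not tested. GINS3, which passed the filter only through its estradiol values, rose with estradiol by 1.23 and was not called with tamoxifen or with alpelisib added. GINS4 was the most abundant of the firing genes, at 23.8 and 15.2 FPKM with estradiol, 9.77 in vehicle, 9.04 and 8.92 under tamoxifen, and 12.4 and 12.1 with the combination. It was called between vehicle and estradiol (0.90 ± 0.26, adjusted p = 0.037), but not with tamoxifen (−0.11 ± 0.26, adjusted p = 0.763). The estradiol call of GINS4 was lost without a filter, with only the groups compared, and without any 1 tamoxifen or combination library. GINS1 had 15.6 and 10.7 FPKM with estradiol, 5.08 in vehicle, 2.85 and 2.95 under tamoxifen, and 0.877 and 1.68 with the combination, and its difference when alpelisib was added was −0.80 ± 0.24 (adjusted p = 0.0806). GINS2 had 14.3 and 13.1 FPKM with estradiol, 11.4 in vehicle, 2.83 and 3.77 under tamoxifen, and 4.11 and 2.81 with the combination. It fell with tamoxifen by 1.53 ± 0.23 (adjusted p = 0.00379) and did not pass with estradiol (0.25 ± 0.23, adjusted p = 0.45). In the mouse annotation 67.3% of the exon bases of GINS2 are shared with GSE1 on the opposite strand, which had 10.6 FPKM in vehicle and 2.14 and 2.86 with tamoxifen. The sources used here do not say whether fragments were counted by strand, so the pair cannot be told apart.

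CDC45, CDC7 and DBF4 all rose with estradiol and were not called with tamoxifen or when alpelisib was added. DBF4, the activating subunit of the CDC7 kinase, was lowest in vehicle, at 1.97 FPKM, and stood at 3.59 and 3.10 with tamoxifen and 3.32 and 3.42 with the combination. CDC7 itself was at 0.842 in vehicle, 0.730 and 0.783 under tamoxifen, and 0.133 and 0.265 with the combination, where the difference of −0.55 ± 0.17 did not pass (adjusted p = 0.0962).

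Of the 8 primase and polymerase genes 5 rose with estradiol, 5 fell with tamoxifen and 1 fell when alpelisib was added. These are 62.5%, 62.5% and 12.5%, against 22.7%, 24.1% and 4.81% of all genes called in the same direction. POLD1, the catalytic subunit of the lagging-strand polymerase delta, was at 23.7 and 25.2 FPKM with estradiol, 11.6 in vehicle, 2.72 and 2.74 under tamoxifen, and 2.05 and 2.72 with the combination. The tamoxifen libraries lay close together and far below vehicle, a fall of 1.75 ± 0.18 (adjusted p = 0.00081). With alpelisib added the change was −0.15 ± 0.14 (adjusted p = 0.557).

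POLD2, the accessory subunit of the same polymerase, was the most abundant of the group, at 26.2 and 30.3 FPKM with estradiol, 21.1 in vehicle, 10.8 and 14.5 under tamoxifen, and 6.75 and 7.58 with the combination. It fell when alpelisib was added by 0.73 ± 0.17 (adjusted p = 0.047), a call that 8 of the alternatives did not keep. POLE, the catalytic subunit of the leading-strand polymerase, had 5.20 and 7.79 FPKM with estradiol, 1.40 in vehicle, 0.534 and 0.451 under tamoxifen, and 0.293 and 0.482 with the combination. It rose with estradiol by 1.62 ± 0.24 (adjusted p = 0.00447), and its tamoxifen value of −0.69 ± 0.24 did not pass (adjusted p = 0.0625). POLA1 and PRIM1, the catalytic subunits of polymerase alpha and primase, fell with tamoxifen by 1.40 ± 0.17 and 1.41 ± 0.17, and their partners POLA2 and PRIM2 had −0.57 ± 0.20 (adjusted p = 0.0706) and −0.74 ± 0.21 (adjusted p = 0.0349). The PRIM2 call was lost with quantile normalization, without a filter, and without any 1 tamoxifen or combination library. The tamoxifen call of POLD2 was lost under both scalings, among other alternatives.

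In the group of clamp, clamp loader, RPA and Okazaki fragment genes, 4 of 8 rose with estradiol, 3 fell with tamoxifen and 1 fell when alpelisib was added. These are 50%, 37.5% and 12.5%, against 22.7%, 24.1% and 4.81% of all genes called in the same direction. PCNA, the sliding clamp, was at 133 and 93.8 FPKM with estradiol, 81.6 in vehicle, 52.6 and 71.6 under tamoxifen, and 55.6 and 59.6 with the combination. The ranges of both tamoxifen groups overlapped, and PCNA was called in neither comparison with tamoxifen or estradiol against vehicle (adjusted p = 0.305 and 0.26). LIG1, the ligase that seals Okazaki fragments, was at 43.3 and 42.8 with estradiol, 18.6 in vehicle, 9.17 and 7.32 under tamoxifen, and 4.83 and 5.52 with the combination. LIG1 fell with tamoxifen by 1.09 ± 0.18 (adjusted p = 0.00533), and its groups did not overlap with alpelisib added (−0.58 ± 0.15, adjusted p = 0.0579).

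FEN1, the nuclease that trims Okazaki fragment flaps, was at 16.4 and 15.9 FPKM with estradiol, 3.13 in vehicle, 3.77 and 4.06 under tamoxifen, and 2.16 and 1.97 with the combination. It rose with estradiol by 2.06 ± 0.15 (adjusted p = 0.000605), was not called with tamoxifen (0.25 ± 0.15, adjusted p = 0.229), and fell by 0.68 ± 0.12 when alpelisib was added (adjusted p = 0.0217). The call with alpelisib was lost without any 1 of the tamoxifen or combination libraries, and with the replicate block. An annotated antisense gene covers 78.8% of the exon bases of FEN1, with the same limit as for GINS2. The clamp loader genes RFC4 and RFC5 fell with tamoxifen by 0.81 ± 0.25 (adjusted p = 0.046) and 0.74 ± 0.15 (adjusted p = 0.0106). The RFC4 call was lost in 10 alternatives, both scalings among them (adjusted p of up to 0.143), and that of RFC5 in 1. RFC2, RFC3 and RPA2 did not pass, with estimates from −0.30 to −0.59.

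Of the 4 nucleotide supply genes, 3 rose with estradiol, 2 rose with tamoxifen and 0 were called by limma when alpelisib was added, where 3 had an unadjusted p under 0.05, all with lower values (again beside 14.3% of all genes). The rises are 75% with estradiol and 50% with tamoxifen, against 22.7% and 14.9% of all genes. RRM1, the large subunit of ribonucleotide reductase, was at 37.5 and 37.6 FPKM with estradiol, 10.1 in vehicle, 22.7 and 21.5 under tamoxifen, and 18.6 and 20.3 with the combination. Vehicle was the lowest library by a wide margin. RRM1 rose with tamoxifen by 1.05 ± 0.15 (adjusted p = 0.0031) and with estradiol by 1.79 ± 0.15 (adjusted p = 0.000833), while with alpelisib added it changed by −0.18 ± 0.12 (adjusted p = 0.409).

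RRM2, the small subunit and the one tied to S phase, was at 11.9 and 7.36 FPKM with estradiol, 1.18 in vehicle, 3.06 and 3.90 under tamoxifen, and 1.20 and 1.76 with the combination. It rose with tamoxifen by 1.03 ± 0.30 (adjusted p = 0.0357), a call lost without any 1 of the tamoxifen or combination libraries. When alpelisib was added, the groups did not overlap and the change was −0.86 ± 0.24 (adjusted p = 0.0738). TYMS, thymidylate synthase, and TK1, thymidine kinase, were not called with tamoxifen (−0.33 ± 0.21 and 0.59 ± 0.40), and TK1 rose with estradiol by 1.69 ± 0.40 (adjusted p = 0.0203).

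Within a library, ratios do not depend on the scaling between libraries. The summed FPKM of the 4 nucleotide supply genes over that of MCM2 to MCM7 was 0.313 and 0.255 with estradiol, 0.193 in vehicle, 0.664 and 0.730 under tamoxifen, and 0.772 and 0.830 with the combination. RRM1 over MCM3 was 1.06 and 1.11 with estradiol, 0.598 in vehicle, 4.10 and 4.48 under tamoxifen, and 6.34 and 6.55 with the combination. All 4 libraries with tamoxifen lay above the other 3 in both ratios. These pairs were chosen after their values were known, and carry no test.

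**Figure D5:**
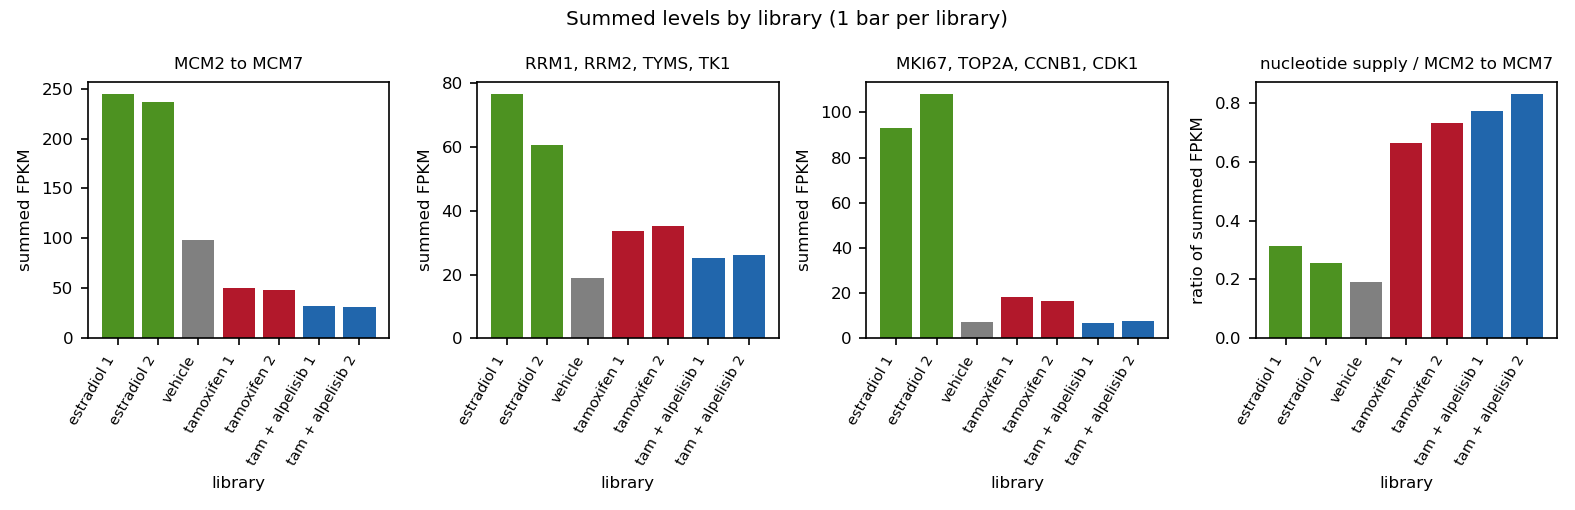
Summed FPKM per library (bars, 1 per library, y axes from 0) of the MCM ring, of the nucleotide supply genes and of the mitosis genes MKI67, TOP2A, CCNB1 and CDK1, and the ratio of the second to the first. The MCM sum falls from 98.2 in vehicle to 50.7 and 48.0 with tamoxifen, while the mitosis sum goes from 7.39 to 18.3 and 16.7.

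UHRF1, which recruits maintenance methylation to newly copied DNA, was at 30.5 and 33.4 FPKM with estradiol, 5.79 in vehicle, 3.58 and 3.46 under tamoxifen, and 0.841 and 1.03 with the combination. All 4 groups were separate. On the log2(FPKM + 1) scale it rose with estradiol by 2.28 ± 0.16 (adjusted p = 0.000535) and fell when alpelisib was added by 1.22 ± 0.13 (adjusted p = 0.00554), on that scale the furthest of the 39 genes in both. In mean FPKM without a pseudocount its estradiol level was 5.52 times that of vehicle, against 8.51 for MCM10, and its tamoxifen level 3.76 times that of the combination, against 4.10 for the low gene GINS3. Over the alternatives the latter p ran from 0.0038 to 0.0831, and the call was lost only when a library of the combination was left out. The fall with tamoxifen, −0.59 ± 0.16 (adjusted p = 0.0281), was not kept under either scaling alternative.

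Of 40 other replication genes, 21 rose and 1 fell with estradiol (52.5% higher against 22.7% of all genes, median 0.76 against 0.12). With tamoxifen 1 rose and 3 fell, 7.5% lower against 24.1% of all genes, with a median of −0.18 against −0.12. When alpelisib was added 3 fell, 7.5% against 4.81%, with a median of −0.27 against −0.03. RPA1, the large single-strand binding subunit, was at 12.8 FPKM in vehicle, 5.87 and 5.61 under tamoxifen, and 3.22 and 2.92 with the combination, falling by 1.03 ± 0.15 and then 0.73 ± 0.12 (adjusted p = 0.00295 and 0.0177). The call with alpelisib was lost when any 1 of the tamoxifen or combination libraries was left out, and with the replicate block (adjusted p of up to 0.195). DNMT1, the maintenance methyltransferase that works with UHRF1, fell with tamoxifen by 0.68 ± 0.16 (adjusted p = 0.0197, not kept under either scaling), and had −0.45 ± 0.13 with alpelisib added (adjusted p = 0.0813). CLSPN, CHAF1A and CHAF1B, of fork protection and chromatin assembly, rose with estradiol by 1.87 ± 0.15, 1.75 ± 0.16 and 2.02 ± 0.23. CLSPN reached 1 FPKM, and so passed the filter, only with estradiol.

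Among 15 E2F and pocket protein genes, 9 rose with estradiol and 0 fell, 0 rose and 4 fell with tamoxifen, and 1 rose and 2 fell with alpelisib added. The share lower with tamoxifen, 26.7%, was near the 24.1% of all genes, and the share higher with estradiol was 60% against 22.7%. With alpelisib 6.67% were higher and 13.3% lower, against 6.93% and 4.81%. E2F1, an activator of S phase genes, was at 7.06 and 6.27 FPKM with estradiol, 3.44 in vehicle, 1.21 and 1.30 under tamoxifen, and 0.747 and 0.737 with the combination. It fell with tamoxifen by 0.98 ± 0.15 (adjusted p = 0.0043), with −0.37 ± 0.13 when alpelisib was added (adjusted p = 0.112). RBL2, the pocket protein p130 of resting cells, fell with tamoxifen by 1.29 ± 0.18 and rose with alpelisib by 0.79 ± 0.15 (adjusted p = 0.0255), the latter lost in 6 alternatives, among them each tamoxifen or combination library left out (adjusted p of up to 0.197). MYBL2 and E2F8 rose with estradiol by 1.97 ± 0.16 and 1.86 ± 0.16, and both reached 1 FPKM, and so passed the filter, only there.

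Of 17 cyclins, kinases and inhibitors of G1 and S phase, 5 rose and 3 fell with estradiol, 2 rose and 4 fell with tamoxifen, and 1 rose and 2 fell with alpelisib added. With tamoxifen this is 11.8% higher and 23.5% lower, near the 14.9% and 24.1% of all genes, so these counts do not set the list apart. With estradiol it is 29.4% and 17.6% against 22.7% and 12.8%, and with alpelisib 5.88% and 11.8% against 6.93% and 4.81%. CCND1, cyclin D1, was at 21.5 and 21.9 FPKM with estradiol, 51.5 in vehicle, 9.61 and 7.75 under tamoxifen, and 9.27 and 11.0 with the combination. CCND2 stood at 20.1 FPKM in the single vehicle library and at 0.234 to 2.35 in the others. It fell with tamoxifen by 3.68 ± 0.25, and also with estradiol, by 2.84. CCNA2, cyclin A2, rose with tamoxifen by 1.01 ± 0.15 (adjusted p = 0.00377) and fell by 0.94 ± 0.13 when alpelisib was added (adjusted p = 0.00935, lost without tamoxifen 1 or either library of the combination). CDC25A, the phosphatase that activates CDK2, did likewise, by 0.96 ± 0.15 and −0.60 ± 0.12 (adjusted p = 0.00371 and 0.0273). Its alpelisib call was lost in 5 alternatives, among them each tamoxifen or combination library left out (adjusted p of up to 0.251). CCNE1, cyclin E1, rose with estradiol by 1.94 ± 0.15 and had 0.33 ± 0.15 with tamoxifen (adjusted p = 0.14). It reached 1 FPKM, and so passed the filter, only with estradiol. CDKN1A, the inhibitor p21, was at 17.7 and 11.7 FPKM with estradiol and 45.9 to 101 in the other libraries.

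All 25 mitosis genes rose with estradiol (median 2.57), 14 rose and 0 fell with tamoxifen (median 0.83), and 12 fell and 0 rose with alpelisib added (median −0.75). These are 56% higher with tamoxifen against 14.9% of all genes, and 48% lower with alpelisib against 4.81%. Leaving out either combination library gave 6 rises with tamoxifen and 0 falls with alpelisib, and the fit without a filter on low values gave 9 and 3. MKI67, the proliferation antigen, was at 16.6 and 30.4 FPKM with estradiol, 1.17 in vehicle, 3.65 and 2.85 under tamoxifen, and 0.911 and 1.13 with the combination. Its changes were 3.44 ± 0.34 with estradiol (adjusted p = 0.00128), 0.96 ± 0.34 with tamoxifen (adjusted p = 0.067) and −1.07 ± 0.28 with alpelisib added (adjusted p = 0.059). For tamoxifen against vehicle the medians thus had opposite signs, −0.57 for the 39 replication genes and 0.83 for the 25 mitosis genes, and the signs held under median-of-ratios scaling (−0.42 and 0.96) and quantile normalization (−0.41 and 1.02). The difference between the lists itself was not tested.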

How the data were processed

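RNA of 7 libraries in 4 groups was read from a table of FPKM made by the authors with CASAVA, Bowtie and Cufflinks, per the submitters' processing notes, which give no versions. The only build they name is the human hg19, while the symbols are mouse symbols, so no position was taken from the table. The values were taken as FPKM. They are not whole numbers, so they are not raw counts, but this alone does not settle the unit. A total of 6155 of 24353 genes were at 0 in every library.

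The 12314 genes that reached an FPKM of 1 in 1 library or more were fitted with limma 3.58.1 (limma-trend, R 4.3.3) on log2(FPKM + 1), as 4 group means with 3 residual degrees of freedom. The pseudocount of 1 understates changes of low genes. Vehicle, with 1 library, was assumed to vary like the other groups. P values were adjusted by Benjamini and Hochberg within each of 6 comparisons, with a threshold of 0.05. The labels number the mice of the treated groups, and p-values measure the spread between their libraries. The fit was tested on simulated data. Overlap with other genes was taken from GENCODE M21. Sums, counts and figures were made in Python 3.11.15 with matplotlib 3.10.9, pandas 2.3.3, numpy 2.4.6 and scipy 1.17.1.

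The 39 genes, the lists and the tests were chosen with earlier results of these data known. Values in every library are given for genes called when alpelisib was added and, per role, for the gene of highest mean FPKM and those of lowest p in 3 comparisons (tamoxifen against vehicle, estradiol against vehicle, alpelisib added). The rest are given by range. From each other list up to 4 genes of lowest p are named, and always MKI67, CCNE1, CCND1, E2F1, CDKN1A and GMNN. Alternatives were median-of-ratios scaling, quantile normalization, no filter, the filter in at least 2 libraries, a pseudocount of 0.1, robust empirical Bayes, only the groups compared, a replicate block, and each library left out.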

Additional observations from a re-analysis of the deposited data

How the results depend on the processing

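Of 150 calls of the 39 genes over the 6 comparisons, 100 were kept in every alternative and 0 were reversed. Kept in every alternative were 10 of 29 calls for estradiol against vehicle, 11 of 18 for tamoxifen against vehicle, 0 of 6 for alpelisib added to tamoxifen, 13 of 20 for the combination against vehicle, 32 of 38 for tamoxifen against estradiol and 34 of 39 for the combination against estradiol. Depth limits the genes below 1 FPKM, such as GINS3 and CDC6, where few fragments stand behind a value.

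Median-of-ratios scaling, quantile normalization and a pseudocount of 0.1 gave medians of the 39 log2 fold changes of −0.42, −0.41 and −0.69 for tamoxifen against vehicle, −1.15, −1.15 and −1.96 for tamoxifen against estradiol, −0.61, −0.61 and −1.05 for the combination against vehicle, and −1.62, −1.69 and −2.44 for the combination against estradiol. For alpelisib added the pseudocount of 0.1 gave −0.41. With only the groups compared, the estradiol against vehicle fit called 12 of the 39, and the combination against vehicle had a median of −0.81 over 34 genes that passed the filter.

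With 1 library left out, the count for alpelisib added ran from 0 to 11 and its median from −0.43 to −0.26. The count for the combination against vehicle ran from 13 to 24 and its median from −0.75 to −0.70. The median for tamoxifen against vehicle ran from −0.65 to −0.41, and for tamoxifen against estradiol from −1.71 to −1.28.

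Over all genes, alpelisib added gave 1445 calls, but 870 without a filter, 603 with the replicate block, 301 without tamoxifen 1, 692 without tamoxifen 2, and 18 and 14 without either library of the combination. Estradiol against vehicle gave 4366, but 1597 with only those groups and 2808 and 2837 without either library of the combination. The combination against vehicle gave 4299, but 6985 with only those groups and 1900 and 1977 without either of its libraries, and against estradiol 6548, but 3871 and 3936.

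The labels do not say that same-numbered libraries belong together. Deviations of these from their group means correlated at −0.40 (estradiol and tamoxifen), −0.18 (estradiol and the combination) and 0.27 (tamoxifen and the combination). With 2 libraries per group, these values cannot show whether a pairing or batch exists. A replicate block over the 6 treated libraries called 2 of the 39 genes with alpelisib added, 37 for tamoxifen against estradiol and 38 for the combination against estradiol.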
